A study of Homo sapiens with 18 samples.

Results

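RAB13, RAB34 and RASL11A are genes of small GTPases, and DEF6 is the gene of an exchange factor that activates small GTPases. These 4 genes were taken by symbol from a table that prints 4816 symbols. They were chosen by measured values of these same libraries, RAB13 and DEF6 for their rise in OCI-AML3 clones, RAB34 for its rise in OCI-AML2 clones and RASL11A for opposite changes in the 2 lines. Their values in those comparisons are therefore given as a description with no test. The same holds for the parental lines against each other, since parental libraries had a part in the choice, and only the remaining comparisons were tested. RNA had been sequenced from 2 established human acute myeloid leukaemia lines, OCI-AML2, labelled NPM1WT, and OCI-AML3, labelled NPM1c+, the mutant form of nucleophosmin that is found in the cytoplasm. In each line the parental cells, labelled Caspase-2 WT, were compared with 2 clones labelled Caspase-2 KO, in which CASP2 had been targeted with CRISPR/Cas9. All 6 groups were untreated and were cultured in the same medium with serum, and each had 3 libraries. The question was what the loss of caspase-2 changes in cells with and without the NPM1 mutation. Each knockout group is 1 clone, so the targeting of CASP2 and whatever else set a clone apart from the parental population cannot be told apart within it.

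Small GTPases are switches that are active with GTP bound and inactive with GDP bound. Exchange factors load them with GTP, and GTPase activating proteins speed the hydrolysis that turns them off. Rab proteins such as RAB13 and RAB34 steer vesicles between compartments, Ras-like proteins pass on growth signals, and GTPases such as RAC1 and CDC42 shape the actin cytoskeleton of migrating and phagocytic leukocytes. RAB13 acts between the trans-Golgi network, recycling endosomes and the plasma membrane, and was first studied at epithelial cell junctions. RAB34 is found at the Golgi, positions lysosomes and takes part in macropinocytosis and in the building of cilia. RASL11A is a Ras-like protein of the nucleolus that has been linked to the synthesis of ribosomal RNA. DEF6, a relative of SWAP70, is an exchange factor for RAC1 and CDC42 known best from T lymphocytes.

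The promoter windows of RAB13, DEF6 and RASL11A are shown because the first pair moved together in OCI-AML3 clones and RASL11A moved the other way there. Each window runs from 250 bases before to 50 bases after a transcription start in RefSeq (build GRCh38.p14), 5′ to 3′ on the strand of the gene. Capitals mark GGGCGG, the GC box, and GAGGAA, the core letters bound by the myeloid factor PU.1, on either strand. The letters were chosen after the sequences had been seen.
RAB13, the upstream of 2 starts, chr1:153986290-153986589, minus strand: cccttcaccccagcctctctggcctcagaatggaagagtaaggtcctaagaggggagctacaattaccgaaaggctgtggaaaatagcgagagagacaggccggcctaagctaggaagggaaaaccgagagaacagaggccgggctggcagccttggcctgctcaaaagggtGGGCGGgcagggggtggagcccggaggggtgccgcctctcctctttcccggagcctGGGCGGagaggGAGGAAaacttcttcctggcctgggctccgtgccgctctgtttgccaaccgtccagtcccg
DEF6, chr6:35297568-35297867, plus strand: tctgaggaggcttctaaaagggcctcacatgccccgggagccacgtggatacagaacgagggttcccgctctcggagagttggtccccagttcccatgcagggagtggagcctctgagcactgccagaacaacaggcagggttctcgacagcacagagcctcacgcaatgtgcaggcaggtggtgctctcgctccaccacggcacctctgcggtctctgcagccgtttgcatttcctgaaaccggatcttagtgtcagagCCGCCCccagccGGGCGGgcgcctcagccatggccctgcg
RASL11A, chr13:27270580-27270879, plus strand: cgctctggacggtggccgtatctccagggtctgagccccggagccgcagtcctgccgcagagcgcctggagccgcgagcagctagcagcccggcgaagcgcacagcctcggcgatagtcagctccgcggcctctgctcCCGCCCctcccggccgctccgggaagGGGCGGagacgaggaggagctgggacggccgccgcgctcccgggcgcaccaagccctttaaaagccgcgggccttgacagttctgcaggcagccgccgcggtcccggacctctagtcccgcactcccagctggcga
Each of the 3 windows held 2 matches to GGGCGG, which stood in 45% of all 35116 promoter windows of that length. Only the RAB13 window among the 3 shown held GAGGAA, with 1 match, against 27.9% of all windows. The dinucleotide CG occurred 14 times in the RAB13 window, 17 times in that of DEF6 and 36 times in that of RASL11A, and 87.3% of all windows had fewer than RASL11A. TGAGTCA, the AP-1 site, was in none of the 3. It occurred 2 times in the window of the other RAB13 start, against 4.95% of all windows. That window held 0 matches to GGGCGG, 1 match to GAGGAA and 1 CG, so the RAB13 counts depend on the start shown. Of the 3 RefSeq windows of RAB34, 2 overlap and share 1 match to TGAGTCA at the same position. These 2 held 0 matches to GGGCGG, and the remaining window held 4. These matches describe the letters in the windows, and which start the cells used was not measured.

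Values are TPM, a unit scaled for gene length and library size, so that levels of different genes can be set side by side. The table holds no read counts, so the depth behind a value is unknown. It lists genes selected for a change, since 97.4% of its lines passed a log2 ratio of 0.95 in at least 1 of 3 comparisons, namely parental against parental, both clones of OCI-AML3 against parental, or clone 1 of OCI-AML2 against parental. Many sets of 18 values stand under more than 1 symbol. RAB13 shared its values with a line printed as ZIC4, DEF6 with STAMBPL1 and RASL11A with PIMREG, and in each case the other line gave the OCI-AML3 clone 1 values in a rotated order and was dropped. RAB34 had its values repeated under its own symbol. RAB13, RAB34 and DEF6 each also headed 1 line of other values that stood nowhere else. Those lines were set aside because a single line was taken as named only where its parental means differed by a log2 ratio under 0.6, and theirs differed by more. As a later check, the order of identifiers among the displaced lines (1199 of 1200 steps increasing) places another gene there. The line set aside under RAB13 had means of 2.68 TPM in OCI-AML2 parental and 134.5 TPM in OCI-AML3 parental cells, that under RAB34 3.83 and 8.87 TPM, and that under DEF6 0 and 65.2 TPM. The results on these genes rest on this assignment.

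CASP2 itself was at 9.72% and 12.3% of the parental mean in OCI-AML2 clones 1 and 2, and at 94.2% and 112% in the OCI-AML3 clones, so its mRNA does not check the knockout labels in OCI-AML3. Of 18 myeloid markers 8 had a settled symbol, and their sum moved with the groups. It was 5338 to 5899 TPM in OCI-AML2 parental cells, 9644 to 12327 TPM in clone 1 and 4020 to 5006 TPM in clone 2, and in OCI-AML3 it was 14318 to 16203 TPM in parental cells, 4019 to 4190 TPM in clone 1 and 4784 to 5427 TPM in clone 2. The OCI-AML3 clones, in which RAB13 and DEF6 were higher and RASL11A lower than in parental cells, thus held a lower sum of myeloid markers. The sum covers CSF2RA, CD68, CD14, ITGAM, FCGR1A, AZU1, PRTN3 and CTSG and follows the most abundant of them. Single markers were not examined and may run the other way. CD3D, the 1 of 11 T lymphocyte markers with a settled symbol, was listed at 0 in all OCI-AML3 libraries and in OCI-AML2 parental cells, and was at 0.98 to 1.54 TPM in OCI-AML2 clone 1 and 1.09 to 1.74 TPM in clone 2. PAX5, the 1 of 7 B lymphocyte markers with a settled symbol, was at 1.72 to 1.77, 3.82 to 4.2 and 1.91 to 2.11 TPM in OCI-AML2 parental cells, clone 1 and clone 2, and at 0.38 to 0.52, 0.14 to 0.2 and 0.08 to 0.13 TPM in the same groups of OCI-AML3. ITGA2B and NFE2, 2 of 10 erythroid and megakaryocyte markers, summed to 7.84 to 8.98 TPM in OCI-AML2 parental cells, 25.7 to 33.9 TPM in its clones, 3.66 to 3.92 TPM in OCI-AML3 parental cells and 11.02 to 15.2 TPM in its clones. COL1A2, 1 of 6 fibroblast markers, stayed at or below 0.02 TPM in OCI-AML2 and was higher in both OCI-AML3 clones, at 2.85 to 3.91 TPM in clone 1 and 1.83 to 2.17 TPM in clone 2, than in the parental cells, at 0.06 to 0.25 TPM. Their part in the results below was not tested. These are bulk samples, so fewer cells with a transcript and less of it per cell cannot be told apart.

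RAB13 was nearly silent in OCI-AML3 parental cells and present in both OCI-AML3 clones. The OCI-AML3 parental libraries listed 0, 0 and 0.13 TPM of RAB13, against 22.45, 27.69 and 28.21 TPM for clone 1 and 21.05, 26.27 and 23.05 TPM for clone 2. All clone libraries of that line lay above all parental ones, the parental cells held the lowest values of the series and the clones the highest. The description on the log2(TPM + 1) scale, which understates changes of low values, was a difference of 4.70 for clone 1 and 4.55 for clone 2, and with a pseudocount of 0.1 in place of 1 it was 7.63 and 7.47. No ratio is given because parental libraries were listed at 0.

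The OCI-AML2 parental libraries listed 6.83, 4.58 and 5.98 TPM of RAB13, against 12.11, 10.03 and 11.34 TPM for clone 1 and 6.42, 4.85 and 5.00 TPM for clone 2. Clone 1 lay above both other groups without overlap, while clone 2 overlapped the parental libraries. RAB13 rose in OCI-AML2 clone 1 from 5.80 ± 1.14 to 11.2 ± 1.05 TPM (SD, n = 3), a log2 change of 0.85 (SE 0.13, adjusted p = 2.21e-05), where 56.0% of all 4413 tested sets of values passed in either direction. In OCI-AML2 clone 2 the log2 change was -0.08 (95% interval -0.35 to 0.20, adjusted p = 0.659), where 65.7% passed. The OCI-AML2 clones differed from each other, with clone 2 lower by a log2 value of -0.93 (SE 0.13, adjusted p = 8.43e-06), in a comparison in which 58.9% of sets passed. In OCI-AML3 the corresponding difference of clone 2 from clone 1 was -0.15 (95% interval -0.42 to 0.13, adjusted p = 0.552), and 6.82% of sets passed. That share rests on 301 sets, which became 143, 181, 180, 171 and 102 without clone 1 replicate 1, 2 or 3 or clone 2 replicate 1 or 2 of OCI-AML3, in that order. The replicate order of clone 1 may differ between sets. OCI-AML3 parental cells minus OCI-AML2 parental cells gave -2.69 for RAB13 (-5.46 with a pseudocount of 0.1), a description.

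RAB34 had the reverse arrangement, low only in OCI-AML2 parental cells and abundant in every OCI-AML3 library. For RAB34 the OCI-AML2 parental libraries listed 1.62, 1.27 and 1.73 TPM, those of clone 1 35.84, 39.21 and 36.38 TPM and those of clone 2 41.76, 42.95 and 42.34 TPM. The 3 groups did not overlap, and the ratio of mean TPM to the parental cells was 24.1 in clone 1 and 27.5 in clone 2. OCI-AML3 parental libraries listed 133.2, 138.94 and 129.51 TPM, against 130.67, 132.11 and 120.35 TPM for clone 1 and 126.26, 117.13 and 115.19 TPM for clone 2. Thus the clones of OCI-AML2 stood between the 2 parental lines, well short of OCI-AML3, and the OCI-AML3 groups lay close together.

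For RAB34 the clone comparisons in OCI-AML3 had not been used to choose the gene. The OCI-AML3 parental libraries may still have had a part in its entry into the table. Clone 1 of OCI-AML3 differed from parental cells by a log2 value of -0.07 (95% interval -0.22 to 0.08, adjusted p = 0.409), in a comparison where 72.2% of sets passed. Clone 2 was lower by -0.16 (SE 0.07, adjusted p = 0.0467), where 73.1% passed, and its 3 libraries lay below the parental ones without overlap. This call was lost after rescaling by medians of ratios (log2 -0.01, adjusted p = 0.908), with a pseudocount of 0.1 (adjusted p = 0.0948), without the intensity trend (adjusted p = 0.0576) and with the replicate number as a block (adjusted p = 0.0636). It was also lost without any single one of these libraries: OCI-AML2 parental replicate 1, OCI-AML2 clone 1 replicate 1, OCI-AML2 clone 2 replicate 2 or 3, any OCI-AML3 parental replicate, OCI-AML3 clone 1 replicate 1 or 2, or OCI-AML3 clone 2 replicate 2 or 3 (adjusted p from 0.0502 to 0.146). OCI-AML3 parental minus OCI-AML2 parental was 5.74 on the log2 scale, a description, with RAB34 at 134 ± 4.75 TPM in OCI-AML3 and 1.54 ± 0.240 TPM in OCI-AML2. OCI-AML2 clone 2 exceeded clone 1 by 0.19 (SE 0.07, adjusted p = 0.0314). That smaller difference no longer passed with a pseudocount of 0.1 (adjusted p = 0.0701) or without OCI-AML2 clone 1 replicate 1 (0.102) or 3 (0.0775) or OCI-AML2 clone 2 replicate 2 (0.0757) or 3 (0.0639). Clone 2 of OCI-AML3 differed from clone 1 by -0.10 (95% interval -0.24 to 0.05, adjusted p = 0.457).

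RASL11A was high only in OCI-AML3 parental cells, and its clone changes ran in opposite directions in the 2 lines. OCI-AML3 parental libraries held 30.49, 28.77 and 36.01 TPM, clone 1 libraries 2.24, 2.51 and 4.10 TPM and clone 2 libraries 1.67, 2.54 and 2.77 TPM. The clones of OCI-AML3 were at 9.29% and 7.33% of the parental mean, with no overlap between clone and parental libraries. In OCI-AML2 the parental libraries held 0.28, 0.07 and 1.34 TPM, clone 1 libraries 2.40, 2.34 and 2.99 TPM and clone 2 libraries 5.45, 4.35 and 4.37 TPM. Every clone library of OCI-AML2 lay above every parental one, and clone 2 lay above clone 1. Levels in the clones of both lines came to lie within 1.67 to 5.45 TPM, between those of the parental lines.

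The OCI-AML2 ratios of RASL11A to parental cells, 4.57 in clone 1 and 8.39 in clone 2, depend on parental replicate 3, the highest of the 3, and were 14.7 and 27.0 without it. Log2 differences from parental cells were 1.27 and 1.95 in OCI-AML2 and -3.08 and -3.31 in OCI-AML3, for clones 1 and 2 in turn. With a pseudocount of 0.1 they were 2.55 and 3.40 in OCI-AML2 and -3.43 and -3.74 in OCI-AML3. The description of OCI-AML3 parental minus OCI-AML2 parental cells was 4.47, with 31.8 ± 3.78 TPM in OCI-AML3 against 0.563 ± 0.681 TPM in OCI-AML2. In OCI-AML2, clone 2 was higher than clone 1 by 0.68 (SE 0.23, adjusted p = 0.0157), a call lost with a pseudocount of 0.1 (adjusted p = 0.162) and without clone 2 replicate 1 (adjusted p = 0.0609). In OCI-AML3, clone 2 differed from clone 1 by -0.23 (95% interval -0.71 to 0.24, adjusted p = 0.594).

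DEF6 was abundant in OCI-AML2, near absent in OCI-AML3 parental cells and intermediate in both OCI-AML3 clones. For DEF6 the OCI-AML3 parental libraries listed 0.38, 0.65 and 0.44 TPM, against 26.79, 28.44 and 26.07 TPM for clone 1 and 28.72, 29.35 and 26.85 TPM for clone 2. Mean TPM was 55.3 times the parental mean in clone 1 and 57.8 times in clone 2, and clone and parental libraries did not overlap. Parental libraries of OCI-AML2 listed 93.8, 90.06 and 89.14 TPM, against 95.23, 99.6 and 89.89 TPM for clone 1 and 95.38, 116.76 and 102.81 TPM for clone 2. Clone 1 overlapped the parental libraries of OCI-AML2, and clone 2 lay just above them.

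The clone comparisons in OCI-AML2 had not been used to choose DEF6, but the OCI-AML2 parental libraries may have had a part in its entry into the table. In OCI-AML2, clone 1 differed from parental cells by a log2 value of 0.06 (95% interval -0.11 to 0.23, adjusted p = 0.584). Clone 2 was higher by 0.20 (SE 0.08, adjusted p = 0.0366), from 91.0 ± 2.47 to 105 ± 10.9 TPM. The call for clone 2 was lost with a pseudocount of 0.1 (adjusted p = 0.156), after rescaling (0.073), in a fit of only the groups compared (0.0788) and without OCI-AML2 parental replicate 2 (0.0826) or 3 (0.0957) or clone 2 replicate 2 (0.211) or 3 (0.0563). As a description, OCI-AML3 parental minus OCI-AML2 parental was -5.95 for DEF6. Clone 2 differed from clone 1 by 0.14 in OCI-AML2 (95% interval -0.03 to 0.31, adjusted p = 0.148), which passed after rescaling (adjusted p = 0.0306) and without clone 2 replicate 1 (adjusted p = 0.045). In OCI-AML3 that difference was 0.06 (95% interval -0.11 to 0.23, adjusted p = 0.726).

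**Figure D1:**
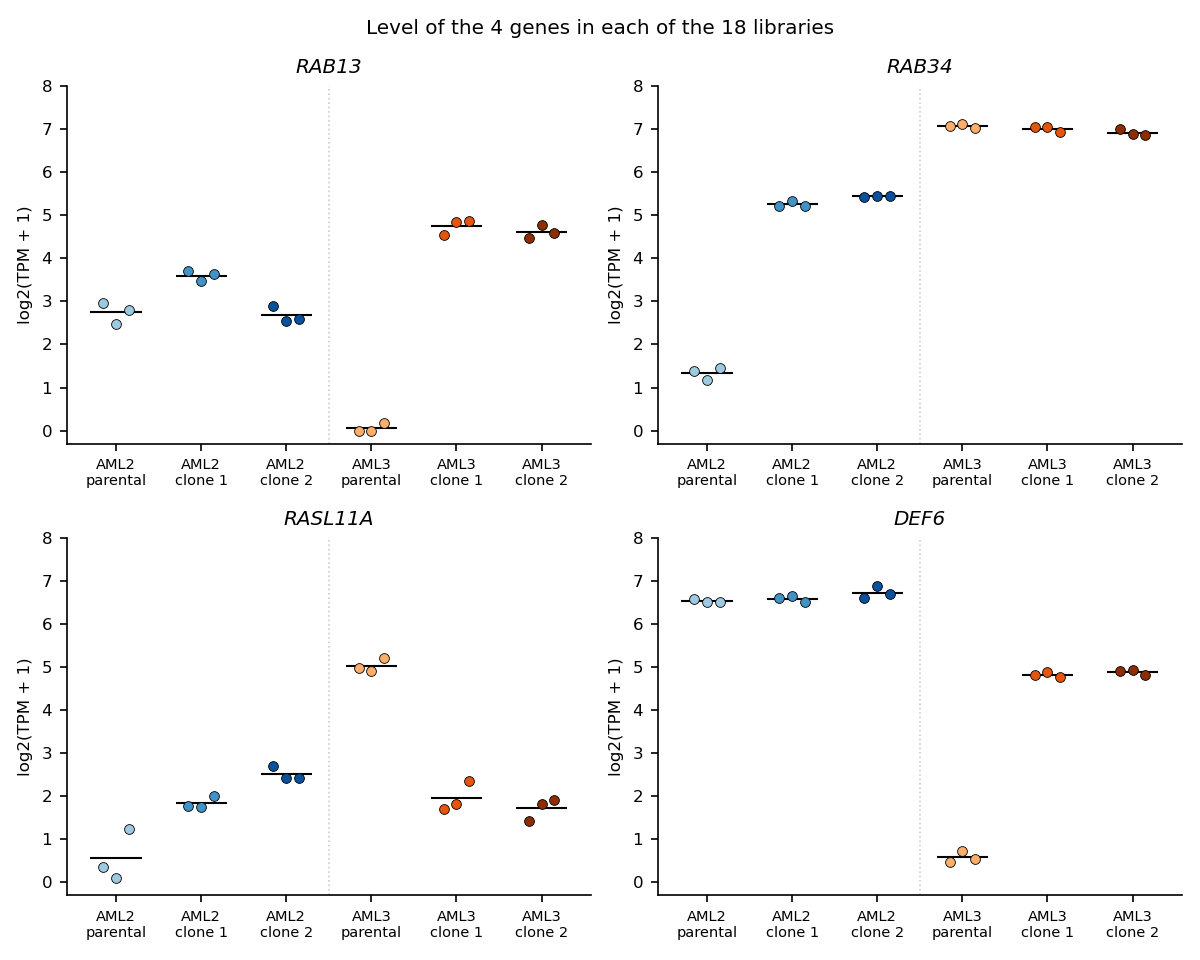
Level of each gene as log2(TPM + 1) on the vertical axis in the 6 groups on the horizontal axis; points are single libraries, lines are means of 3 libraries, blue is OCI-AML2 and orange is OCI-AML3. RAB13 and DEF6 are lowest in OCI-AML3 parental cells, RAB34 and RASL11A in OCI-AML2 parental cells.

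Set side by side, each of the 4 genes had a mean under 2 TPM in 1 parental line and a higher level in the other, and the clones of the line with the low level stood higher. This too is a description, because the genes were chosen for such clone changes from a table selected partly on the parental difference. How many of all sets share the pattern, or have clone and parental libraries without overlap, was not counted. RAB34 in OCI-AML2, RASL11A in both lines and DEF6 in OCI-AML3 moved toward the level of the other parental line without reaching it. RAB13 is the exception, because the OCI-AML3 clones, at 26.1 ± 3.19 and 23.5 ± 2.63 TPM, exceeded every OCI-AML2 library. The clone change in OCI-AML3 minus that in OCI-AML2 was 4.24 for RAB13, 4.14 for DEF6, -4.12 for RAB34 and -4.80 for RASL11A on the log2 scale, given as a description because it was part of the choice. With a pseudocount of 0.1 the values were 7.12, 5.45, -4.73 and -6.56 in the same order, so their sizes and order depend on the pseudocount. Over all tested sets, 90.6% passed between the parental lines, where the 4 genes were given as a description. The median over all tested sets was -0.23 for the clone change in OCI-AML3 minus that in OCI-AML2, and -0.09 after rescaling. For that difference 3607 of 4413 tested sets passed in either direction. Of the 4 genes, 0 passed in clone 2 against clone 1 of OCI-AML3, where 6.82% of all sets passed, and 3 passed in OCI-AML2, where 58.9% did. With a pseudocount of 0.1 only RAB13 passed between the OCI-AML2 clones.

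**Figure D2:**
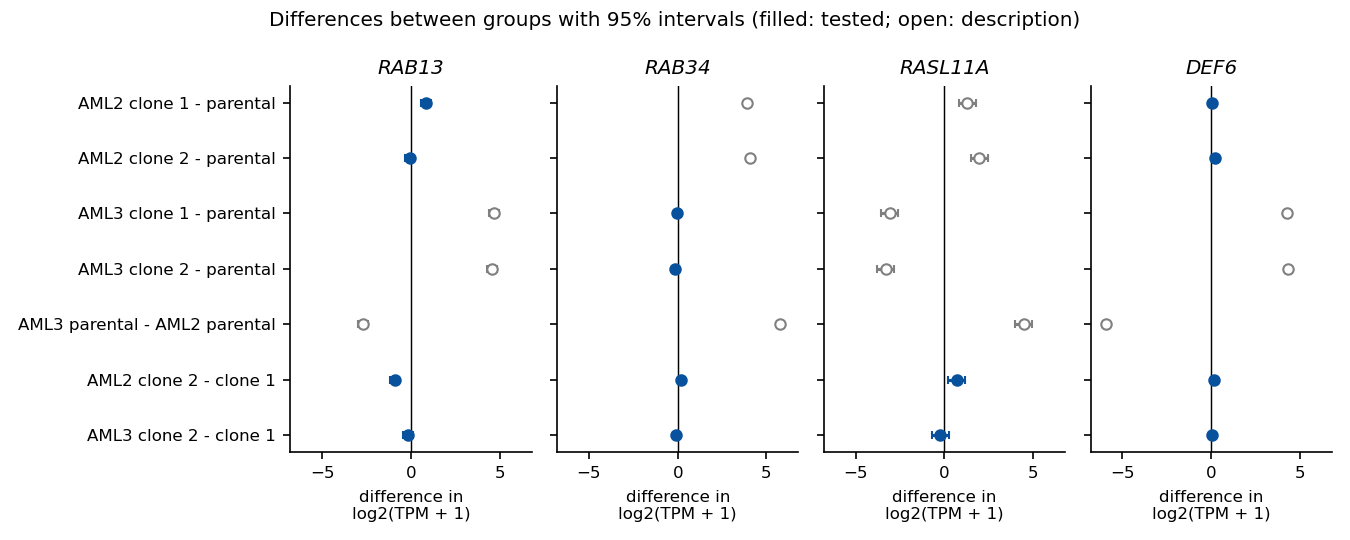
Differences between groups in log2(TPM + 1) on the horizontal axis for 7 comparisons, with 95% intervals from the limma fit; filled points are comparisons that were tested and open points those that share values with the choice of the gene. The difference between the parental lines runs from -5.95 for DEF6 to 5.74 for RAB34, and all 4 intervals for the OCI-AML3 clones against each other include 0.

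Over the 6 group means of log2(TPM + 1), the profiles of the 4 genes were compared with each other. Pearson's r was 0.62 between RAB13 and DEF6, 0.63 between RAB34 and RASL11A and -0.85 between RASL11A and DEF6. It was -0.736 between RAB13 and RASL11A, -0.555 between RAB34 and DEF6 and 0.0627 between RAB13 and RAB34. Each value has 6 groups, and libraries are shared by both genes of a pair. Among 2083 tested sets with a settled symbol, the profiles most like RAB13 were those of LGALS3, the gene of galectin-3 (r = 0.998), PLEKHG4 (0.997) and ZNF302 (0.987). LGALS3 was at 9.89 TPM in OCI-AML3 parental cells and at 68.4 and 59.3 TPM in its clones. Closest to RAB34 were ATP10A, a phospholipid-transporting ATPase gene (0.994), THAP10 (0.987) and RUFY3 (0.986), with ATP10A at 0.557 TPM in OCI-AML2 parental cells and 5.01 and 5.72 TPM in its clones. For RASL11A they were SGPP1, a sphingosine-1-phosphate phosphatase gene (0.986), DPF1 (0.984) and CD300C (0.982), and for DEF6 CNPY3 (0.996), GNA12, a G protein subunit gene (0.994), and the cathepsin gene CTSH (0.994). With 6 groups in a table of selected genes, such values are a description only.

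Other genes of small GTPases and of their regulators were taken from 3 fixed lists without the 4 genes above, and 34 of 192 listed genes could be tested under a settled symbol. A gene counts as changed in a line where both clones passed in the same direction, which 28.5% of all 2084 tested sets with a symbol did upward and 17.3% downward in OCI-AML2, and 36.2% and 49.1% in OCI-AML3. Over all 4413 tested sets the shares were 23.8% and 14.6% in OCI-AML2 and 28.7% and 38.3% in OCI-AML3. Of the 34 list genes, 15 (44.1%) were higher and 4 (11.8%) lower in OCI-AML2, and 12 (35.3%) were higher and 18 (52.9%) lower in OCI-AML3. Their median log2 change was 0.29 in OCI-AML2 and -0.53 in OCI-AML3, against 0.07 and -0.26 over the sets with a symbol.

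Among 16 other Rab GTPases, 6 were higher and 3 lower in OCI-AML2, and 7 were higher and 8 lower in OCI-AML3. RAB7B, a Rab of late endosomes and the Golgi, rose in both lines, with mean log2 changes of both clones of 1.73 and 2.52 (larger adjusted p of the clones 5.83e-07 and 4.48e-14). RAB8A, a Rab related to RAB13 that acts in transport to the plasma membrane, rose in OCI-AML3 by 1.61, from 18.6 to 58.9 and 58.4 TPM, and was at 0.45 in OCI-AML2 without a call in both clones. RAB26, a Rab of secretory granules, fell in both lines, by -1.42 and -1.96. RAB3A, the synaptic vesicle Rab, was also lower in both, with -0.65 in OCI-AML2 and -1.08 in OCI-AML3. RAB42 had opposite calls, at -1.63 in OCI-AML3 against 0.91 in OCI-AML2. RAB15 rose in OCI-AML2 (1.35). RAB15 was called lower in OCI-AML3 (-0.36), a call that ended after rescaling.

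Of 4 other Ras family genes all were called higher in OCI-AML2 (median 0.89), at low levels. RASD1 rose from 0.263 to 5.72 and 3.08 TPM, and RASL10A was listed at a mean of 0 TPM in parental cells and at 0.523 and 1.52 TPM in the clones. In OCI-AML3, GEM rose (1.31) and RASL10A fell (-0.69). RASL10A thus shared with RASL11A a higher level in the OCI-AML2 clones and a lower one in the OCI-AML3 clones than in parental cells. So did RAB15, RAB37 and RAB42 among the Rab genes, and RAB11FIP5, RAB3IL1 and TBC1D9 among the Rab regulators and effectors. RAB27A and RIN2 were called in the reverse direction in each line. The share of all sets with opposite calls in the lines was not counted. SWAP70, the relative of DEF6, had no settled symbol.

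Of 14 regulators and effectors of Rab proteins, 5 were higher and 1 lower in OCI-AML2 and 4 higher and 9 lower in OCI-AML3 (median -0.77). RAB11FIP5, an effector of RAB11, changed in the same directions as RASL11A, with 1.39 in OCI-AML2 and -2.18 in OCI-AML3. TBC1D10C rose in OCI-AML2 (1.38) and RIN2 fell there (-0.95), while RIN3, an exchange factor for RAB5 (2.22), and SYTL1, an effector of RAB27 (2.11), rose and TBC1D9 fell (-2.15) in OCI-AML3. The number lower in OCI-AML2 was 2 after rescaling, with DENND1C added, and 0 with a pseudocount of 0.1.

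**Figure D3:**
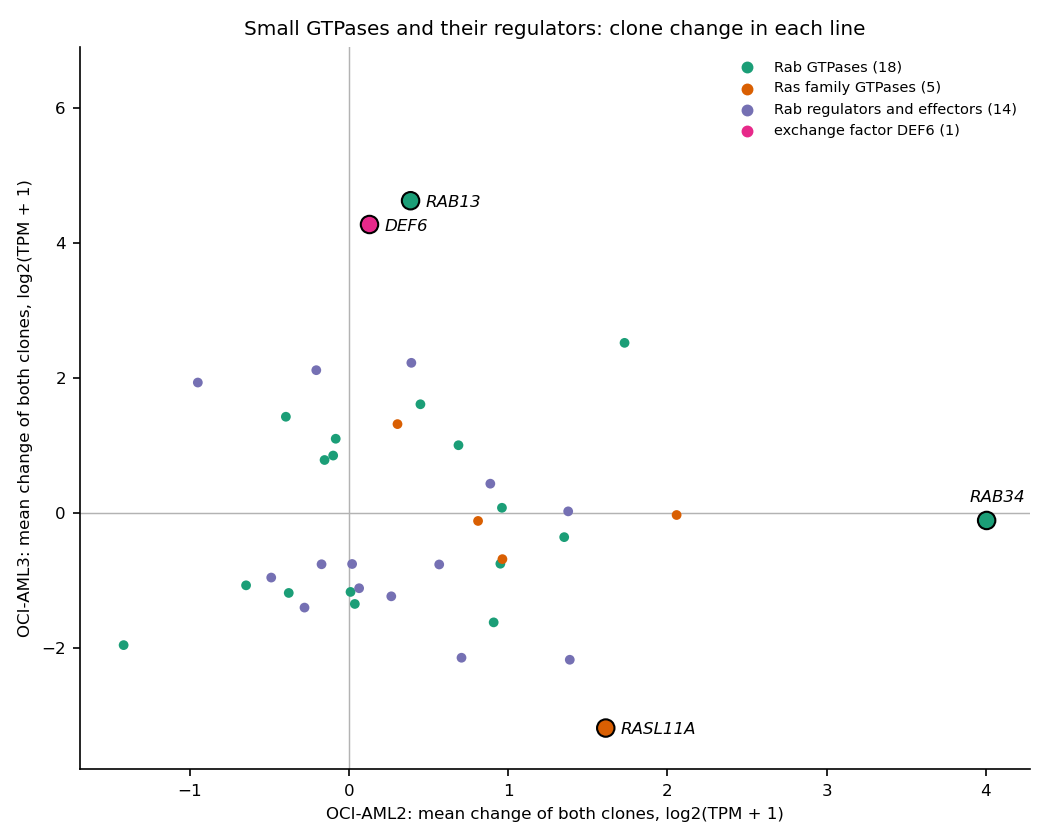
Mean change of both clones in log2(TPM + 1) in OCI-AML2 on the horizontal axis and in OCI-AML3 on the vertical axis for the tested genes of the 3 lists, coloured by list, with RAB13, RAB34, RASL11A and DEF6 outlined and named. RAB13 and DEF6 lie at the top near the vertical axis, RAB34 at the far right near the horizontal axis and RASL11A at the lower right.

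**Figure D4:**
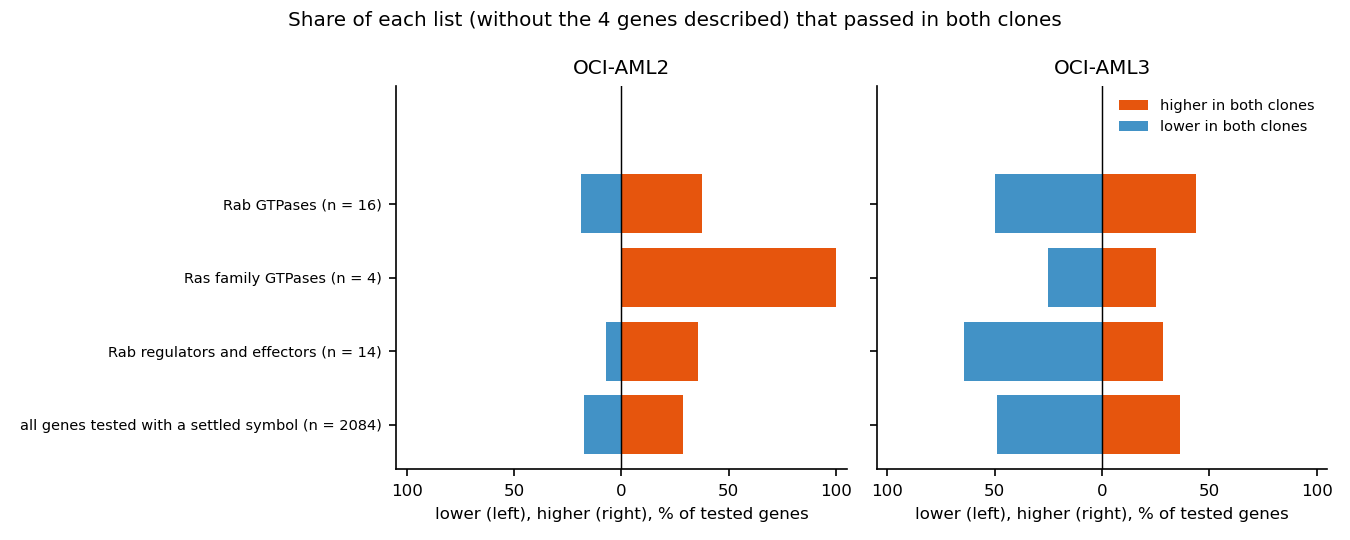
Share of the tested genes of each list that passed in both clones of OCI-AML2 (left) and OCI-AML3 (right), in percent, with higher to the right and lower to the left of 0 and the 4 genes left out. The bottom bar gives all 2084 tested sets with a settled symbol, and the list of 4 Ras family genes reaches 100% higher in OCI-AML2.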

How the data were processed

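Sample titles gave the group and replicate number of the 18 libraries, 3 in each of 6 groups. Per the file headers, the authors deposited 1 table that holds a TPM value for each gene in each library. How reads were aligned and counted, and on which build, is not given in the sources used here. All 18 value columns matched a sample. Its 6999 lines hold 5069 distinct sets of 18 values, each counted once. Symbols were settled in 413 sets by repetition under the same symbol, in 1234 sets by the order of the replicates in OCI-AML3 clone 1, where the line reading a, b, c was trusted over one reading b, c, a, and in 673 sets from a single line whose parental means differed by a log2 ratio under 0.6. In all 2320 sets (45.8%) had a symbol. Which of the replicate orders is true is not known, and group means do not depend on it. Single lines kept the order printed, so a replicate number of OCI-AML3 clone 1 may not mean the same library in every set.

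The test was limma (version 3.58.1, R version 4.3.3) on log2(TPM + 1), fitting the 6 group means to the 18 libraries together, with the prior variance trended on intensity. A set was tested where 3 or more libraries reached 1 TPM, which left 4413 sets, 2084 of them with a symbol. All 4 genes passed this minimum. RAB34 reached it within every group, and RAB13, RASL11A and DEF6 within every group but the parental one in which each was lowest. Tests were two-sided, and the Benjamini-Hochberg adjustment ran over all tested sets, with 0.05 as the threshold. The labels do not say that libraries of a group came from separate cultures, so p-values measure the spread between libraries, which may be technical. The alternatives tried were another pseudocount (0.1), rescaling by medians of ratios, no minimum level or one of 5 TPM, the replicate number as a block, only the groups compared, no trend, every printed line, and each library left out in turn.

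The members and lists were chosen with earlier results of these data known. Named from each list were the 2 genes with the largest rise and the 2 with the largest fall per line among those passing in both clones, and for each of the 4 genes the 3 most correlated genes. DENND1C, RAB27A, RAB37 and RAB3IL1 were named after their values were seen. The report uses 3 of the lists, and the others are not reported here. Promoter sequences are from RefSeq (GRCh38.p14), in which all 4 genes were found.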

Additional observations from a re-analysis of the deposited data

Results flagged for a closer look

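RASL11A drew attention because its clones moved in opposite directions in the 2 lines. All 6 OCI-AML2 clone libraries lay above the parental ones and all 6 OCI-AML3 clone libraries below, and the clone change in OCI-AML3 minus that in OCI-AML2 was -4.80 on the log2(TPM + 1) scale. The difference was not tested here, since RASL11A had been chosen for it. Without OCI-AML2 parental replicate 3 it was -5.14.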

How the results depend on the processing

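Of 364 settings of the tested comparisons of the 4 genes, 330 kept direction and side of the threshold. This total is no measure of stability, since many settings could not change the log2 value. Among the 26 settings per comparison, 18 left out 1 library, often from a group outside the comparison. RAB34 in OCI-AML3 clone 2 kept its call in 11 of 26. Where a change is given below, the cause was not tested. With a pseudocount of 0.1 the log2 values that no longer passed were 0.85 for RASL11A and 0.19 for RAB34 between the OCI-AML2 clones, 0.20 for DEF6 in OCI-AML2 clone 2 and -0.16 for RAB34 in OCI-AML3 clone 2. After rescaling by medians of ratios, RAB34 in OCI-AML3 clone 2 (-0.012) and DEF6 in OCI-AML2 clone 2 (0.171) no longer passed, DEF6 between the OCI-AML2 clones passed (0.213), and the changes of RAB34 in OCI-AML3 clone 1 (0.063) and DEF6 in OCI-AML2 clone 1 (-0.042), which did not pass, turned sign. The factors of this rescaling came from a table of genes selected for a change, so whether they fit the whole libraries is unknown. They were 1.097 to 1.122 in OCI-AML3 parental libraries and 0.982 to 1.027 in those of the OCI-AML3 clones. Without the trend or with the replicate block RAB34 in OCI-AML3 clone 2 (-0.163) did not pass, nor did DEF6 in OCI-AML2 clone 2 (0.20) in a fit of only the groups compared.

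Leaving out each library in turn gave -0.211 to 0.033 for RAB13 in OCI-AML2 clone 2, the positive value without parental replicate 1, -0.203 to -0.136 for RAB34 in OCI-AML3 clone 2 and 0.121 to 0.266 for DEF6 in OCI-AML2 clone 2. Between the OCI-AML2 clones it gave 0.161 to 0.224 for RAB34, 0.588 to 0.759 for RASL11A and 0.062 to 0.206 for DEF6. The 301 sets that differed between the OCI-AML3 clones became 166 with a pseudocount of 0.1, 155 with only the groups compared and 102 to 369 with 1 library left out. Same-numbered libraries did not deviate together (correlations of -0.343 to 0.177 over the groups compared). For OCI-AML3 clone 1 this cannot decide on a pairing, since its replicate order may differ between sets. The same limit holds for its replicates left out in turn and for the block. With the replicate block 241 sets differed between the OCI-AML3 clones and 2445 passed in OCI-AML2 clone 1, against 2471. Read depth is unknown, which limits what the values near 0 can show.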
